A study of Mus musculus with 12 samples.

Results

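Transcripts of adult hemoglobin were measured in dissected CA1 tissue of the mouse hippocampus, where they can come from blood carried along with the tissue. The 5 genes described are the alpha chain genes Hba-a1 and Hba-a2, the beta chain genes Hbb-bs and Hbb-bt, and Alas2, the red cell form of the first enzyme of heme synthesis. They were chosen by name and are 5 of the 48709 gene IDs counted in each library. All 5 passed the filter on low counts, as did 16829 genes in all.

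Of the 12 libraries, 6 came from mice with myocardial infarction brought about by ligating a coronary artery (MI) and 6 from mice that had like surgery with no ligation (Sham). The sources used here do not give strain, sex, age, the time between surgery and dissection, or any washing of blood from the vessels. Whether the libraries of a group come from different animals is not stated either, and p-values then cover only the spread among these libraries, which may be technical. Polyadenylated RNA was read as single-end reads of 50 bases, and the libraries held between 20764133 (Sham 1) and 35643127 (Sham 5) counts. Levels are CPM, the counts of a gene scaled to the size of its library (1000000 counts), with libraries brought to a common scale by edgeR's TMM method.

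Hemoglobin is a tetramer of a pair of alpha chains and a pair of beta chains, each holding a heme group whose iron binds oxygen. In the adult its chains are made in erythroid precursors of the bone marrow, and young red cells still carry much globin RNA after the nucleus is lost. In brain tissue, globin RNA can come from red cells left in the vessels, and low globin expression has also been described in some neurons and glia. In bulk tissue, fewer cells of a type and less RNA per cell cannot be told apart.

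The tissue label was checked against markers of CA1 and forebrain pyramidal neurons, such as Wfs1, Fibcd1 and Camk2a. All 8 were tested, and their summed level ran from 3585 CPM in Sham 1 to 7559 CPM in Sham 5. Markers of neighbouring tissue differed widely between libraries. Those of dentate granule cells summed to 37.2 CPM in MI 1 and 687 CPM in Sham 6, and those of meningeal fibroblasts to 78.0 CPM in Sham 6 and 415 CPM in Sham 1.

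The chains of each kind come from a pair of near-identical genes, and this bears on what a count of either gene holds. The stretches below are shown because they hold the only coding base at which the genes of each pair differ, printed in capitals. They were read from GENCODE M21 transcripts on the mm10 build, 20 bases to either side of the difference where position 1 is the first base of the start codon. Hba-a1 lies at chr11:32284323-32284363 (plus strand), Hba-a2 at chr11:32297140-32297180 (plus), Hbb-bs at chr7:103826672-103826712 (minus) and Hbb-bt at chr7:103812663-103812703 (minus), all in coding exon sequence.
Hba-a1: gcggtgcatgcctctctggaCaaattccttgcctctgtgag
Hba-a2: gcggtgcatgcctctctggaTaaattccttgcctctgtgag
Hbb-bs: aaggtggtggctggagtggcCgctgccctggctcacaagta
Hbb-bt: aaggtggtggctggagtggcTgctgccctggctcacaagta
The difference between the alpha genes is C381T, 1 of 426 coding bases, and that between the beta genes is C417T, 1 of 441. The longest identical coding run was 380 bases in the alpha pair and 416 in the beta pair. A read of 50 bases that lies in such a run belongs equally to both genes.

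How many stretches of read length belong to a single gene was therefore counted over all annotated transcripts and both strands. In Hba-a1, 211 of 761 stretches of 50 bases (27.7%) occurred in no other gene, and in Hba-a2 66 of 616 (10.7%). The beta genes had more, with 335 of 716 (46.8%) in Hbb-bs and 273 of 654 (41.7%) in Hbb-bt. Of the 211 in Hba-a1, 147 lay in the annotated 5′ untranslated region, so that 64 remained elsewhere, close to the 66 of Hba-a2. Only annotated transcripts were searched, so a stretch counted as unique can still occur elsewhere in the genome. The sources used here do not say how reads that map to several places were counted. The split of counts within each pair is therefore uncertain, and the sum over a pair rests on fewer assumptions.

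**Figure D1:**
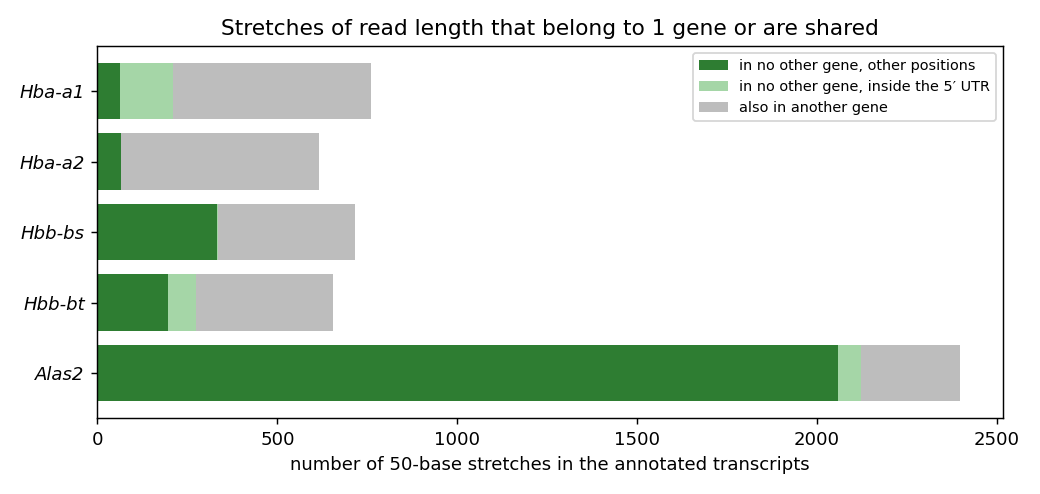
Number of 50-base stretches (x axis) in the annotated transcripts of each of the 5 genes (y axis). Dark green bars count stretches found in no other gene outside the 5′ untranslated region, light green those inside it, and grey those also found in another gene. Hba-a2 has the fewest stretches of its own, 66, and Alas2 the most, 2123.

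Upstream sequence is shown for 1 alpha and 1 beta gene as a description of each family, and its relation to the levels was not tested. The windows are the 100 bases before the RefSeq start (GRCm38.p6), for Hba-a2 at chr11:32296392-32296491 (plus strand) and for Hbb-bs at chr7:103827929-103828028 (minus strand). Capitals mark matches to the CACCC box, to CCAAT (the CAAT box) and to TATAA (the TATA box), motifs known from globin promoters.
Hba-a2: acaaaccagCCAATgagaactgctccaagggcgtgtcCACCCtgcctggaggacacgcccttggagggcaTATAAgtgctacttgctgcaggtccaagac
Hbb-bs: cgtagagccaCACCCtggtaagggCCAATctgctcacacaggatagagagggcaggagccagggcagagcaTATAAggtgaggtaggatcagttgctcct
All 5 genes were matched in the RefSeq promoter table, and each of the 4 globin windows held all of the motifs. Searched on both strands without regard to overlap between motifs, CACCC occurred in 27.2% of 32851 promoter windows of the same length, CCAAT in 18.9% and TATAA in 10.2%. The windows of Hba-a1 and Hba-a2 shared a run of 97 bases, while the longest run shared by Hbb-bs and Hbb-bt was 14 bases and by Hba-a2 and Hbb-bs 9 bases. The Hba-a1 window, at chr11:32283572-32283671, lies inside the annotated Hba-a1 gene. Some stretches counted above as unique to Hba-a1 therefore also occur upstream of Hba-a2. The Alas2 window held CACCC on the reverse strand, GATAA (a match present in 8.55% of windows) on the reverse strand, and neither CCAAT nor TATAA. A match is a description of the letters and not a measured binding site.

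The globin genes were expressed at low levels in every library, and Hbb-bs gave most of the counts. Hba-a1 (ENSMUSG00000069919, chr11:32283511-32284465, plus strand) encodes an adult alpha chain. Its level in MI was 2.36 CPM at the lowest, 2.88 at the median and 4.6 at the highest, and in Sham 2.13, 2.86 and 4.65 CPM. The highest library of each group, MI 5 and Sham 6, stood at nearly the same level, and the groups overlapped over almost their whole range. These levels rested on 45 to 121 counts a library.

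Hba-a2 (ENSMUSG00000069917, chr11:32296489-32297298, plus strand) encodes the same kind of chain from the neighbouring copy. Its level in MI was 1.38 CPM at the lowest, 1.81 at the median and 2.47 at the highest, and in Sham 1.21, 2.11 and 3.76 CPM. Sham 6 was the highest library and Sham 5 the lowest, so the Sham libraries spanned the range of the MI libraries. Counts ran from 30 to 80 a library.

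Hbb-bs (ENSMUSG00000052305, chr7:103826534-103828096, minus strand) encodes an adult beta chain. It stood at 12.7 CPM in the lowest MI library, 15.4 at the median and 25.9 in the highest, and at 10.3, 15.9 and 23.1 CPM in Sham. MI 1 to MI 4 lay within 15.1 and 15.6 CPM, MI 5 stood well above them, and the 6 Sham libraries were spread out on both sides. With 218 to 682 counts a library it was the most precisely measured of the 5 genes.

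Hbb-bt (ENSMUSG00000073940, chr7:103812524-103813996, minus strand) is the second gene for an adult beta chain. Its level in MI was 2.19 CPM at the lowest, 2.63 at the median and 4.67 at the highest, and in Sham 1.37, 2.84 and 4.84 CPM. Again MI 5 and Sham 6 were the highest libraries, and Sham 3 the lowest. Counts ran from 29 to 123.

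Alas2 (ENSMUSG00000025270, chrX:150547375-150570638, plus strand) makes 5-aminolevulinate for heme in erythroid cells, while its relative Alas1 serves other tissues. Its level in MI was 1.27 CPM at the lowest, 1.71 at the median and 2.07 at the highest, and in Sham 1.41, 1.54 and 1.98 CPM. MI 6 was lowest and MI 4 highest, neither of which stood at the end of the globin range. With 31 to 50 counts a library it was also the most even of the 5 genes.

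**Figure D2:**
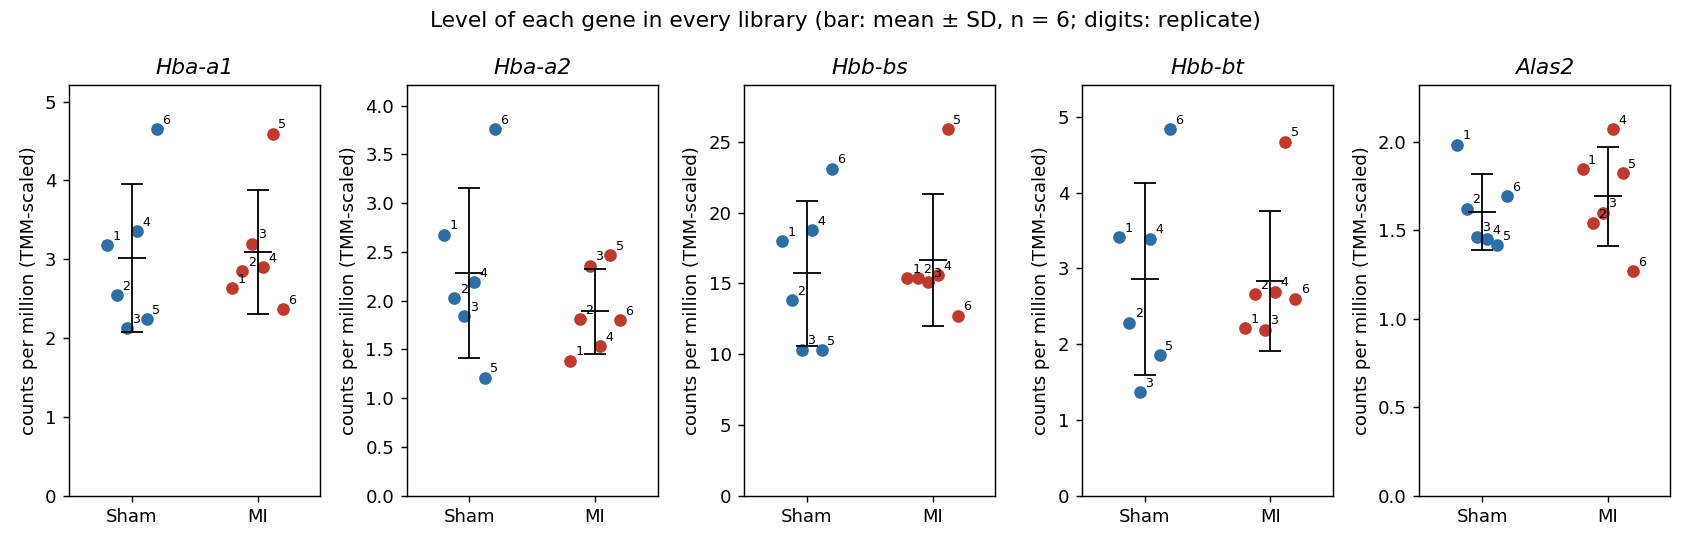
Level of each gene in CPM (y axis, from 0) in the Sham libraries (blue) and the MI libraries (red), with digits giving the replicate and black bars the mean ± SD of 6 libraries. MI 5 and Sham 6 are highest in Hba-a1, Hbb-bs and Hbb-bt, and in Alas2 they are not.

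Levels of different genes can be compared only per length. Per 1000 bases of annotated exon, Hbb-bs stood at 21.1 ± 6.11 CPM (SD, n = 12). Hbb-bt followed at 4.05 ± 1.51, Hba-a1 at 3.76 ± 1.02 and Hba-a2 at 3.13 ± 1.03 CPM on the same scale. Each SD is the spread between libraries, which the genes share, and differences between the genes were not tested. Alas2 was lowest, at 0.686 ± 0.101 CPM per 1000 exon bases. Among all tested genes Hbb-bs lay at the 87.1th percentile of this level, the other globin genes between the 43.5th and the 49.2th, and Alas2 at the 18.0th. If only reads of a single origin had been counted, the length to divide by would be the number of unique stretches. With the stretches unique among annotated transcripts, the order among the weaker globin genes would change. Per 1000 unique stretches, Hba-a2 stood at 31.6 CPM, above Hba-a1 at 14.5 and Hbb-bt at 10.4, and Hbb-bs at 48.3 CPM stayed highest. The same CPM divided by only the unique stretches outside the 5′ untranslated region gave 47.7 for Hba-a1, next to 48.9 for Hbb-bs. No reads were left out, so these values hold only if that region carried no reads. The region was taken from a single transcript, and the stretches from all transcripts of a gene, so the values are not strictly comparable. The order of the alpha genes thus depends on the length chosen.

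Whether the 5 genes differ between the groups was asked by comparing MI with Sham in edgeR's quasi-likelihood test over all 16829 genes. No globin gene and not Alas2 passed an adjusted p of 0.05 (0 of 5, where the background was 0% of all tested genes). At an unadjusted p under 0.05 there were 0 of 5, beside 1270 genes or 7.55% of all tested. None of the 5 had groups that did not overlap, beside 69 genes or 0.41%. DESeq2 called 16 genes and limma-voom 0, and none of the 5 was among them.

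The sum of the 4 globin genes was 24.5 ± 6.57 CPM in MI, beside 23.9 ± 8.10 CPM in Sham (± SD over 6 libraries a group, as below). Hba-a1 stood at 3.09 ± 0.789 CPM in MI and 3.02 ± 0.943 in Sham, a log2 difference (MI minus Sham) of 0.04 with a standard error (SE) of 0.21. For Hba-a2 the difference was -0.25 (SE 0.24), from 1.89 ± 0.436 CPM in MI and 2.28 ± 0.867 in Sham. The beta gene Hbb-bs, at 16.7 ± 4.65 CPM in MI and 15.7 ± 5.12 in Sham, gave 0.09 (SE 0.22). Each of these differences was smaller than the spread between libraries of a group. Hbb-bt stood at 2.84 ± 0.925 CPM in MI and 2.86 ± 1.27 in Sham, with an SE of 0.28 on the log2 scale. Alas2 differed by 0.08 (SE 0.14), from 1.69 ± 0.281 CPM in MI and 1.6 ± 0.215 in Sham. In edgeR the adjusted p was 0.849 for Hba-a2 and 0.937 to 0.999 for the other 4 genes.

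A p above the threshold does not show equal levels, and the 95% intervals give what these libraries can exclude. For Hbb-bs the interval of the ratio of MI to Sham ran from 0.762 to 1.48, for Hba-a1 from 0.755 to 1.40 and for Hba-a2 from 0.588 to 1.2. The interval was widest for Hbb-bt, 0.661 to 1.51, and narrowest for Alas2, 0.854 to 1.30. MI 5 had a large part in the sign of small differences. Without it the log2 difference of Hbb-bs was -0.08. The sign of Hbb-bs also turned when Sham 3 or Sham 5 was left out. In the authors' deposited tables of 542 genes higher and 517 genes lower in MI, 0 of the 5 genes were listed. Most of the 16829 genes tested here are likewise absent from those tables, so this says little about the 5 genes.

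Each group held 3 libraries with more Y-linked counts than Xist counts, which were replicates 1, 3 and 4 of MI and replicates 1, 2 and 3 of Sham, and 3 with more Xist. The study did not define these sets, and the labels give no sex. The MI minus Sham difference of Hbb-bs was 0.17 on the log2 scale in the former and 0.06 in the latter. For Hba-a2 it was -0.32 and -0.10, and for Alas2 0.12 and 0.01. In edgeR no test of the difference between the sets passed for any of the 5 genes (adjusted p from 0.902 to 0.999). Only 2 of all 16829 tested genes passed it, so 0 of 5 says little about these genes.

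What varied in these data was the level from library to library. Over the 12 libraries, the 4 globin genes gave 331 to 991 counts. As a share of all counts this was 14.8 CPM before TMM scaling in Sham 5 (95% Wilson interval 13.6 to 16.2) and 37.8 in MI 5 (35.5 to 40.2), where the intervals cover counting error only. The TMM-scaled sum ran from 15.6 CPM in Sham 3 and Sham 5 to 36.3 in Sham 6 and 37.6 in MI 5. In the order of the plot of marker lists, the middle libraries were MI 6 at 19.5, Sham 2 at 20.6 and MI 1 at 21.6 CPM, followed by MI 2 and MI 4 at 22.7 and MI 3 at 22.8 CPM. Sham 1 at 27.3 and Sham 4 at 27.7 CPM lay between these and the highest pair. The ratio of the highest to the lowest library was 2.41, and the coefficient of variation (CV) over all libraries was 29.1%.

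This spread was set beside that of genes with a similar mean count. The within-group CV of Hbb-bs was 30.2%, where the median of 2690 genes with mean counts within a factor of 1.5 was 9.23%, and it lay at the 94.5th percentile of them. Hbb-bt had a CV of 39.0% (median of like genes 17.8%, 92.4th percentile). The alpha genes were lower in that order, Hba-a1 at 28.5% (83.9th percentile) and Hba-a2 at 32.9% (86.1th percentile). Alas2 went the other way, with a CV of 15.2% where like genes had a median of 22.1%, at the 12.8th percentile.

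The same contrast appeared when counts were compared with pure counting error. The chi-square per degree of freedom, which is about 1 when libraries differ by sampling alone, was 38.8 for Hbb-bs, 10.6 for Hbb-bt, 6.27 for Hba-a1 and 5.50 for Hba-a2. For Alas2 it was 1.02, where genes of like count had a median of 1.92. The levels of Alas2 in the 12 libraries therefore could not be told apart at this depth.

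**Figure D3:**
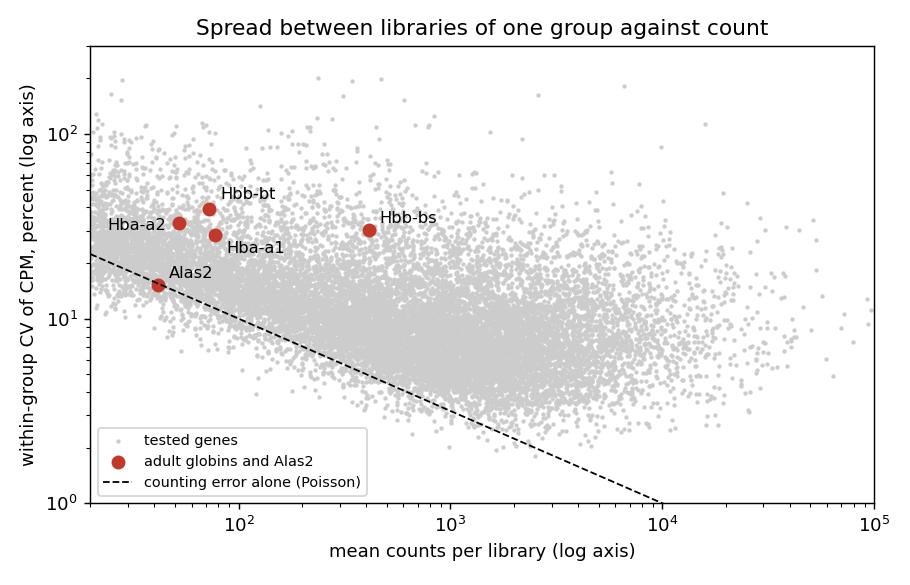
Within-group CV of CPM in percent (y axis, log scale) against mean counts per library (x axis, log scale) for tested genes with a mean of at least 20 counts (grey) and the 5 genes described (red). The dashed line is the CV that counting error alone would give; the 4 globin genes lie above it, between 28.5% and 39.0%, and Alas2 lies on it at 15.2%.

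The globin genes rose and fell together between libraries. Pearson's r and Spearman's rho of log2 CPM were computed for the 10 pairs of genes over 12 libraries, with p from 100000 permutations adjusted over the 10 pairs. Hba-a1 and Hbb-bs, which lie on different chromosomes, had r = 0.96 and rho = 0.92 (adjusted permutation p = 0.0001 for r and 0.00035 for rho). The unadjusted p for r, 1e-05, is the smallest these permutations can give. Hbb-bs and Hbb-bt had r = 0.94 and rho = 0.92 (adjusted permutation p = 0.0001 and 0.00035), and Hba-a1 and Hbb-bt r = 0.91 and rho = 0.81 (0.000233 and 0.00713). These relations held in the other 10 libraries: without the 2 farthest from the median, MI 5 and Sham 6, r was 0.93, 0.88 and 0.79 for the 3 pairs (adjusted permutation p = 0.0005, 0.0043 and 0.0158). Hbb-bt shares 381 of its 654 stretches of 50 bases with Hbb-bs, and Hba-a2 550 of its 616 with Hba-a1. The part of shared reads in the relations within these pairs was not tested.

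Hba-a2 followed the others less closely. It had r = 0.78 and rho = 0.73 with Hba-a1 (adjusted permutation p = 0.00712 and 0.0229), r = 0.71 and rho = 0.65 with Hbb-bs (0.0195 and 0.0506), and r = 0.70 and rho = 0.63 with Hbb-bt (0.0202 and 0.0539). Without the 2 farthest libraries, r of Hba-a2 fell to 0.61, 0.48 and 0.48 and passed no test (adjusted permutation p = 0.156, 0.232 and 0.232). Left out were Sham 6 and MI 5, farthest in Hba-a1, for the first pair, and Sham 6 and Sham 5, farthest in Hba-a2, for the others. With 10 libraries and a narrower range a lower r can arise by itself, and how far these relations rest on those libraries was not tested. Hba-a2 is also the globin gene with the fewest counts and the fewest unique stretches. The part of either in its weaker relation was not tested.

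The relations were also computed within the groups and within the sex-linked sets. Hba-a1 and Hbb-bs had r = 0.95 in MI, 0.97 in Sham, 0.89 in the Y-linked set and 0.98 in the Xist set. Hbb-bs and Hbb-bt had r = 0.88, 0.98, 0.96 and 0.98 in the same order, and Hba-a1 and Hbb-bt 0.81, 0.97, 0.83 and 0.97. Hba-a2 and Hbb-bs had r = 0.54, 0.89, 0.24 and 0.87, Hba-a2 and Hbb-bt 0.53, 0.82, 0.32 and 0.94, and Hba-a1 and Hba-a2 0.73, 0.88, 0.46 and 0.90. The lowest r values were thus those of Hba-a2 in the Y-linked set.

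Alas2 did not pass with any globin gene over the 12 libraries. Its r was 0.51 with Hbb-bs, 0.44 with Hba-a1, 0.37 with Hbb-bt and 0.19 with Hba-a2 (adjusted permutation p = 0.125, 0.195, 0.261 and 0.565), and its rho with Hbb-bs was 0.56 (adjusted permutation p = 0.0879). Within the sex-linked sets the values were higher for Hbb-bs, 0.81 in the Y-linked set and 0.84 in the Xist set. Hba-a1 gave 0.59 and 0.88 with Alas2 in these sets, Hbb-bt 0.84 and 0.77, and Hba-a2 -0.17 and 0.63. Alas2, an X-linked gene, stood at 1.76 ± 0.239 CPM in the former set and 1.53 ± 0.200 CPM in the latter (SD, n = 6), while Hbb-bs stood at 14.7 ± 2.54 and 17.7 ± 6.05 CPM. These differences between the sets were not tested.

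**Figure D4:**
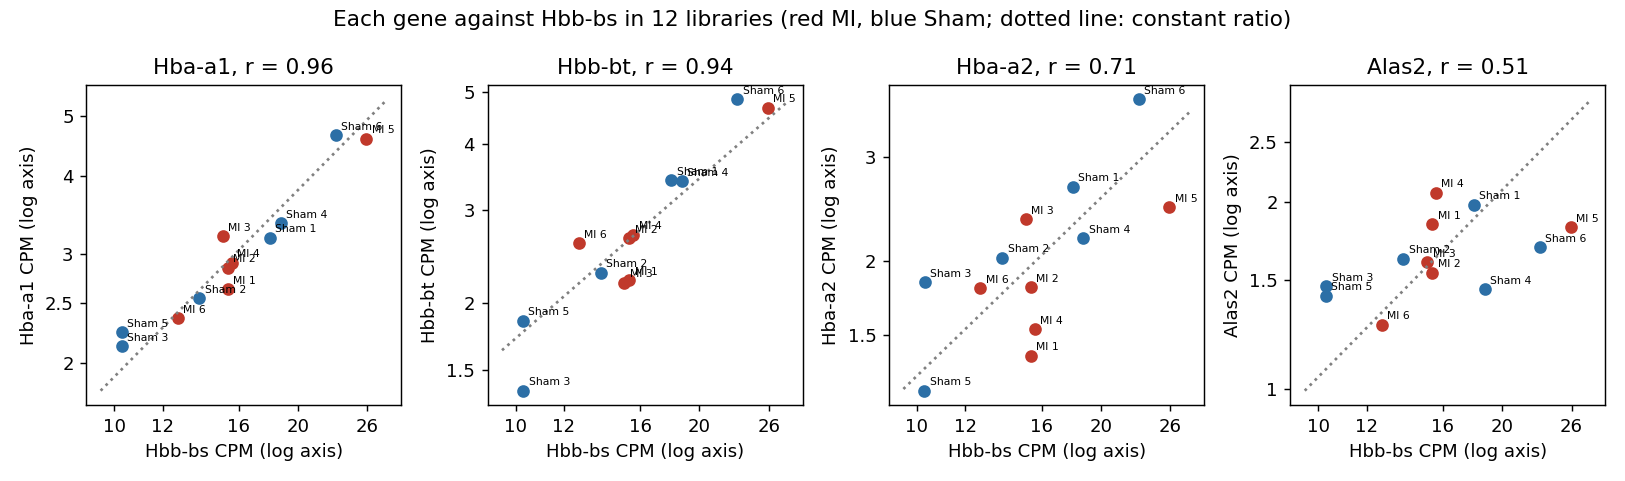
CPM of Hba-a1, Hbb-bt, Hba-a2 and Alas2 (y axes, log scale) against that of Hbb-bs (x axes, log scale) in the 12 libraries (red MI, blue Sham), with Pearson's r of log2 CPM in each title and a dotted line of constant ratio. Hba-a1 and Hbb-bt follow the line (r = 0.96 and 0.94), Hba-a2 scatters more (r = 0.71), and Alas2 rises less steeply than the line (r = 0.51).

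Ratios of counts within a library do not depend on how libraries are scaled. The ratio of Hba-a1 to Hbb-bs was 0.186 ± 0.0140 in MI beside 0.194 ± 0.0166 in Sham and ran from 0.171 in MI 1 to 0.218 in Sham 5. On the log2 scale its SD over 12 libraries was 0.11, less than the 0.18 that counting error alone would give. The ratio of Hbb-bt to Hbb-bs was 0.170 ± 0.0228 in MI and 0.177 ± 0.0258 in Sham, with an SD of 0.20 beside 0.20 from counting. The spread of the first ratio was thus below that of counting error and that of the second close to it, while the summed level ranged 2.41-fold. The part of reads shared by the beta genes in the second ratio was not tested.

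The ratio of Hba-a2 to Hba-a1 was 0.621 ± 0.108 in MI and 0.751 ± 0.127 in Sham, a log2 difference of -0.27. By an exact two-sided permutation test over 924 splits, p was 0.0931, and 0.372 after adjustment over the 4 ratios; the smallest p the design allows is 0.00216. Its SD of 0.28 on the log2 scale was near the 0.27 of counting error. The other ratios had an exact permutation p of 0.400 (Hba-a1 to Hbb-bs), 0.673 (Hbb-bt to Hbb-bs) and 0.835 (Alas2 to Hbb-bs). Alas2 to Hbb-bs was 0.105 ± 0.0213 in MI and 0.11 ± 0.0292 in Sham and ran from 0.0704 in MI 5 to 0.142 in Sham 3. Its SD of 0.35 exceeded the 0.24 of counting error, the largest excess of the 4 ratios. Summed over each family, beta counts were 2.94 to 4.38 times the alpha counts in the 12 libraries.

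Alas2 needs a further caution. Its exons overlap those of Apex2, a DNA repair gene on the opposite strand (chrX:150519519-150589868), over 311 of 2403 exon bases (12.9%), and the sources used here do not state whether counting used strand. Of its 2398 stretches of 50 bases, 2123 (88.5%) occurred in no other gene. Apex2, looked at because of this overlap, had 112 to 237 counts a library and a mean of 6.65 CPM, and its counts were 4.13 times those of Alas2 as the mean of the ratio over the 12 libraries. Reads of the 2 genes in the shared part cannot be told apart without strand. The part of Apex2 in the Alas2 counts was not tested. Their levels did not rise together over the 12 libraries (r = -0.14, rho = -0.28, as a description).

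Genes that mark red cells and their precursors were set beside the globins. Of 16 such genes, 15 were found and 12 had fewer than 10 counts in every library. Those 12 gave 163 counts over all libraries, 2.21% of the 7364 counts of the 4 globin genes. By library, their counts ran from 8 in Sham 6 to 22 in MI 6, without scaling to library size. Slc4a1, the anion exchanger of the red cell membrane, had 0 to 2 counts a library. Gata1 and Klf1, transcription factors of erythroid precursors, had 0 to 1 and 1 to 7 counts.

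The remaining 3 genes, Epor, Tal1 and Ermap, carried the summed level of the list, 7.50 to 8.27 CPM in MI and 7.24 to 9.03 CPM in Sham. Its highest library was Sham 6 and its lowest Sham 1, which was the fourth highest in globin. In MI minus Sham, Epor (the erythropoietin receptor) differed by 0.11 (SE 0.18) and Tal1 by -0.27 (SE 0.16) on the log2 scale, and 0 of the 3 passed. Embryonic globins were near absent. Hba-x, Hbb-bh1, Hbb-bh2 and Hbb-bh0 had 0 counts in all 12 libraries, and Hbb-y had 12 counts in total.

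Markers of other blood cells were at very low counts. All 16 leukocyte genes fell below the filter, and 10 of them had fewer than 10 counts in every library. Their sum was 0.923 to 3.19 CPM in MI and 0.850 to 2.40 CPM in Sham, highest in MI 5 and lowest in Sham 3, which were also the highest and one of the 2 lowest libraries in globin. Named after their values were seen, the neutrophil genes S100a8 and S100a9 had 18 and 11 counts in MI 5, and Plac8 had 15. In Sham 6, with almost as much globin RNA, these genes had 0, 1 and 1 counts. Other genes of the list were highest elsewhere. Ccr2, a monocyte chemokine receptor, had 20 counts in Sham 2 and 19 in Sham 1 beside 15 in MI 5, and Ngp, a neutrophil granule gene, 4 in MI 6 beside 2 in MI 5. The 10 platelet genes, 5 of them tested with 0 called, summed to 9.97 to 11.4 CPM in MI and 9.13 to 13.7 CPM in Sham, highest in Sham 2 and lowest in Sham 5. In Gp1ba, a platelet adhesion receptor subunit, the log2 difference was 0.21 (SE 0.19) and in Pf4, a platelet chemokine, -0.28 (SE 0.38). The part of blood cells other than red cells in the globin levels was not tested.

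Markers of the vessel wall varied less than the globins. The 16 endothelial genes, all tested, summed to 436 to 492 CPM in MI and 412 to 482 in Sham, a ratio of highest to lowest of 1.19. MI 5 was highest in this list too, and Sham 6 stood at 476 CPM. Over the 12 libraries, which share their scaling, the log2 of this sum had r = 0.64 and rho = 0.52 with the globin sum. This was the highest r of the lists beside the globins. The leukocyte list had r = 0.48 and rho = 0.53, and the red blood cell list r = 0.04 and rho = -0.24. These values are given as a description with no test. None of the endothelial genes passed in edgeR, and 3 of 16 had an unadjusted p under 0.05 (7.55% of all tested genes did). Of the 16, 10 were positive, and the median log2 difference was 0.06 beside -0.01 for all genes. Slc2a1, the glucose carrier of the blood-brain barrier, differed by 0.14 (SE 0.05) and Ly6c1 by 0.21 (SE 0.08). In the authors' deposited table both are listed as higher in MI, as is Vwf of the same list, here at 0.56 (SE 0.27). The summed level of 10 mural genes, 9 of them tested, was 241 to 274 CPM in MI and 241 to 282 in Sham, with 0 called. The part of vessel content in the globin levels was not tested.

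**Figure D5:**
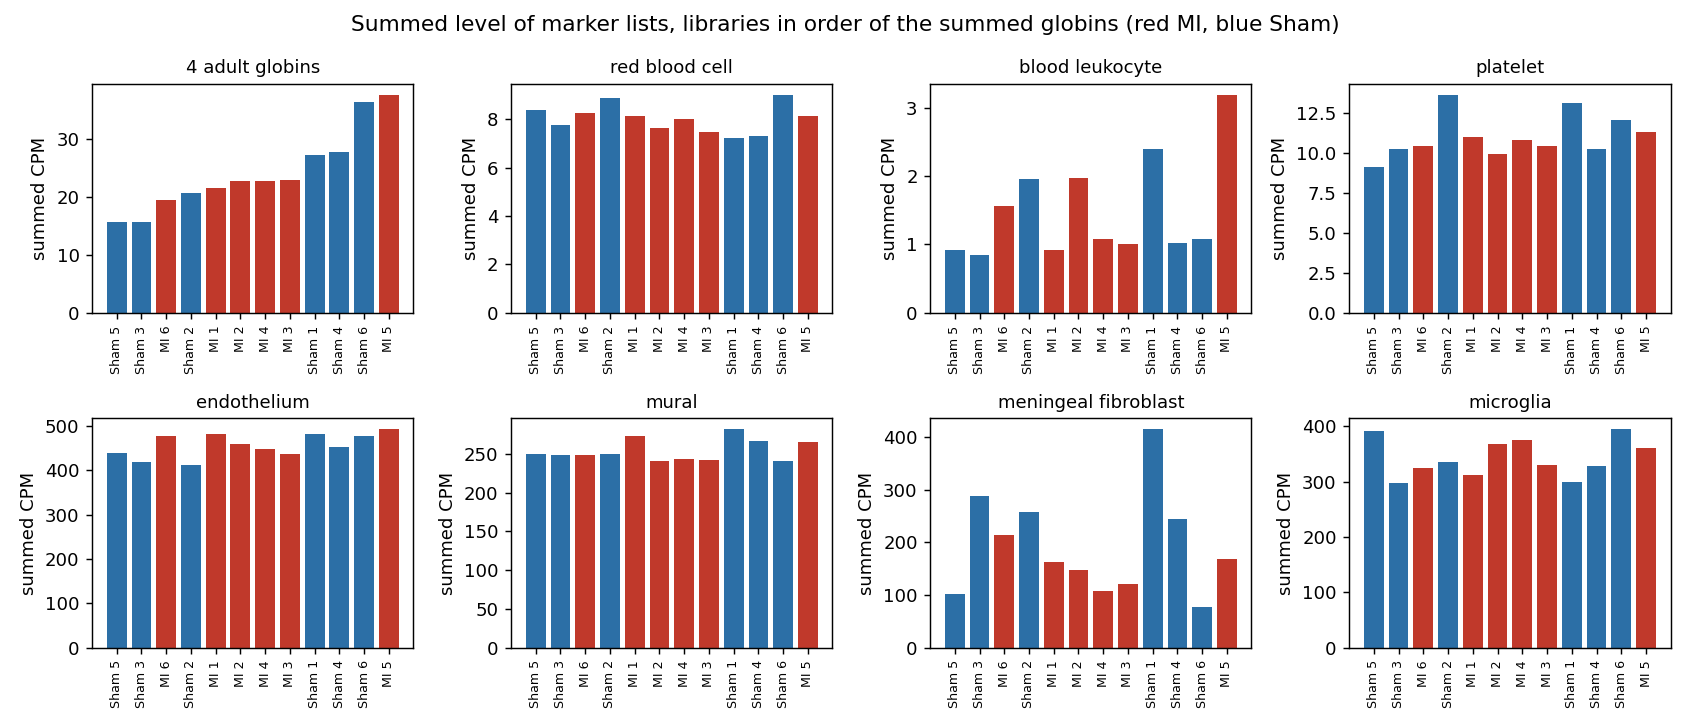
Summed CPM (y axes, from 0) of the 4 adult globin genes and of 7 marker lists in each library (red MI, blue Sham), with libraries in the same order in every panel, from the lowest to the highest globin sum. The globin sum runs from 15.6 to 37.6 CPM. MI 5, on the right, is also highest in the leukocyte and endothelial panels. Sham 6, next to it, is highest in the red blood cell and microglia panels. Epor, Tal1 and Ermap carry the red blood cell sum, and its 12 sparser genes together had their fewest counts in Sham 6.

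The pathway that supplies heme was measured well in this tissue. All 8 other genes of heme synthesis were tested, with 0 called in either direction, 5 positive, and a median log2 difference of 0.05. Alas1, the housekeeping form of the enzyme that Alas2 provides in red cells, stood at 57.6 ± 3.64 CPM in MI and 54.0 ± 3.38 in Sham, a difference of 0.09 (SE 0.05). Alad, the second enzyme of the pathway, differed by 0.10 (SE 0.05). The summed level of the 8 genes was 256 to 290 CPM over all libraries, and its lowest and highest libraries were Sham 1 and MI 3, not those of the globins.

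Of 12 genes for heme breakdown, hemoglobin scavenging and iron handling, 10 were tested and 0 called, with 5 positive and a median of -0.01. Fth1, the heavy chain of the iron store ferritin, had the smallest unadjusted p and stood at 1376 ± 85.8 CPM in MI and 1127 ± 301 in Sham, a log2 difference of 0.29 (SE 0.15) with an adjusted p of 0.690 in edgeR. It is listed as higher in MI in the authors' deposited table. Hmox2, the constitutive heme oxygenase of brain, differed by 0.05 (SE 0.05). Cd163, the macrophage receptor that takes up hemoglobin bound to haptoglobin, had 9 to 54 counts a library. Hp, which encodes haptoglobin, and Hpx, hemopexin, fell below the filter.

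Finally, the genes whose level was most like the summed globins were sought among 13584 tested genes with a mean of at least 50 counts, by Pearson's r of log2 CPM over the 12 libraries. Among the 10 highest were Cyyr1 at r = 0.83, Entpd1 (an enzyme that breaks down extracellular ATP) at 0.83 and Gpld1 (a phospholipase that releases anchored surface proteins) at 0.82, followed by BC065397, Gtpbp10, Utp11, Tmem198b, Cyp4f14 and Klhdc7a at 0.79 to 0.82. For all genes searched the median r was -0.01, and the 99th percentile was 0.65. These 10 are the top of a search over many genes and 12 points that share library and scaling, and are given as a description. Hba-a1 and Hbb-bs, by comparison, had r = 0.96 with each other. None of the 10 differed between MI and Sham in edgeR (adjusted p from 0.883 to 0.988).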

How the data were processed

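The members and gene lists were chosen with earlier results of these data known. The counts that the authors deposited are raw read counts for each Ensembl ID. The submitters' processing notes name FastQC 0.11.5, STAR 2.5.2b, featureCounts, Subread 1.5.1 and mm10, without settings. The authors also deposited tables of genes higher and lower in MI with a log2 fold change, log2-scale levels and an adjusted p-value, used here only to look up names. Symbols came from GENCODE M21 for 48349 of 48709 IDs.

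Genes were filtered by edgeR's filterByExpr and compared in edgeR 4.0.16 (R 4.3.3) with TMM scaling and the robust quasi-likelihood test (two-sided), called at a Benjamini-Hochberg adjusted p under 0.05. The log2 CPM used a prior count of 2. In simulated counts of 16829 genes for MI against Sham, 14% of the genes changed 1.2-fold were recovered. At 1.5-fold it was 78% and at 2-fold 96%. These rates hold for the genes changed in the simulation and not for the 5 genes by themselves. The globin genes had a within-group CV at the 83.9th to 94.5th percentile of genes with like counts. The rates may therefore be too high for them. Libraries of a group were compared pairwise and none were duplicates (chi-square per degree of freedom from 6.22 to 79.2 over 30 pairs). Alternatives were DESeq2 1.42.0, limma-voom (limma 3.58.1), other scalings and filters, a replicate block, the sex-linked sets, and leaving out libraries. Named were all 5 genes, the 2 genes of each list with the smallest unadjusted p, and the 10 genes most like the globin sum; other genes were chosen after their values were seen. Some of the genes these rules name are not reported here.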

Additional observations from a re-analysis of the deposited data

Results flagged for a closer look

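In the MI group, MI 5 stood apart from the other 5 libraries. By Dixon's ratio of the gap to the nearest library over the whole range, all past the 95% critical value for 6 libraries, the log2 CPM of Hbb-bs gave 0.713, that of Hbb-bt 0.728 and that of the summed globin genes 0.757. The 3 values share most of their counts and library, so they are not separate signs. Chance flags about 1 in 20 groups, and over all tested genes the ratio was past the critical value for 4.56% in MI and 5.77% in Sham. Sham 6 reached nearly the same globin level but was not flagged, since the other Sham libraries were more spread out.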

How the results depend on the processing

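None of the 5 genes passed the threshold under any of 119 alternative values (smallest adjusted p 0.481), and 103 kept their sign. Over all genes, DESeq2 called 16 and the Y-linked set alone 211, beside 0 in edgeR; the cause was not tested. DESeq2 gave no adjusted p for Alas2, and the stricter filter gave no value for Alas2. Signs near 0 turned for Hbb-bt with DESeq2 (-0.0051), library totals only (-0.0041) and the Xist set alone (-0.0039), for Hba-a1 in the Xist set (-0.051), and for Hba-a2 without Sham 1 and Sham 6 (0.069). The log2 ratio of Hba-a1 to Hbb-bs became 0.0019 in the Y-linked set alone, and that of Hbb-bt to Hbb-bs 0.042 without Sham 1 and Sham 6. Without Sham 1 and Sham 6, the log2 differences of Hba-a1, Hbb-bs and Hbb-bt were 0.26, 0.32 and 0.34, and limma-voom gave 0.15, 0.21 and 0.28, none past the threshold. Leaving out each library in turn gave -0.11 to 0.20 for Hba-a1, -0.083 to 0.23 for Hbb-bs, -0.20 to 0.21 for Hbb-bt, -0.39 to -0.06 for Hba-a2 and 0.0089 to 0.15 for Alas2; for the log2 ratios it gave -0.15 to 0.066 (Alas2 to Hbb-bs) and -0.13 to 0.00016 (Hbb-bt to Hbb-bs). Whether the replicate numbers pair the samples was not settled. Correlations between same-numbered libraries were -0.35 to 0.40, with 3 of 6 numbers best matched to their own, and were not tested. The fit with the replicate block called 0 genes. Depth limits Alas2 and Hba-a2 most, at 31 to 50 and 30 to 80 counts a library.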

Other observations

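Globin genes other than those of hemoglobin were measured beside the adult hemoglobin genes, whose cell source was not tested. Cygb, cytoglobin of fibroblast-like and neural cells, stood at 48.1 ± 1.39 CPM in MI beside 48.8 ± 4.42 in Sham (± SD over 6 libraries a group). Ngb, neuroglobin of neurons, stood at 1.76 ± 0.503 CPM in MI and 4.11 ± 3.01 in Sham, a log2 difference of -1.22 (SE 0.50) that did not pass in edgeR (adjusted p = 0.624). Mb, myoglobin, had 2 to 6 counts a library.

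Among genes abundant in young red cells but also made by other cells, 7 of 7 were tested and 0 called, with 3 positive and a median log2 difference of -0.02. Bpgm, which makes the red cell regulator of oxygen binding, was at 52.8 ± 4.45 CPM in MI and 47.3 ± 2.99 in Sham, a difference of 0.16 (SE 0.06; adjusted p = 0.614 in edgeR). Slc25a37, the mitochondrial iron importer of erythroid cells, was at 38.5 ± 2.72 and 42.6 ± 7.0 CPM. The summed level of these 7 genes was lowest in MI 6 and highest in Sham 2, neither of which was at an end of the globin range.

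In the lists for tissue other than blood, 0 genes passed in edgeR, and the 2 genes with the smallest unadjusted p in each had these log2 differences, MI minus Sham. Of 10 tested meningeal fibroblast genes, 4 had an unadjusted p under 0.05 (7.55% of all tested genes did) and all differences were negative, with Col1a1 at -0.79 (SE 0.31) and Ogn at -1.51 (SE 0.60). Among 5 tested choroid plexus genes, Sostdc1 stood at 0.64 (SE 0.25) and Ttr at 0.78 (SE 0.36). The mural genes Myh11 and Pdgfrb gave 0.15 (SE 0.08) and -0.07 (SE 0.06), and the microglial genes C1qa and Sall1 0.11 (SE 0.10) and 0.07 (SE 0.06). In pyramidal neuron markers, Pou3f1 was at 0.47 (SE 0.34) and Neurod6 at 0.28 (SE 0.21), and in dentate markers Trpc6 was at -0.49 (SE 0.38) and C1ql2 at -0.61 (SE 0.74). The pyramidal marker Fibcd1, listed as lower in MI in the authors' deposited table (-0.28), was at 0.10 (SE 0.31) here.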
